A study of Homo sapiens with 6 samples.

Results

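The 8 genes of the condensin subunits were described together with TOP2A and MKI67, which encode other main proteins of mitotic chromosomes, in PC-3 cells given menthol or vehicle. The members were the genes of a fixed list of 10 symbols. Each had to be the single symbol of an array probeset, and all 10 were found among the 18404 genes measured, with 1 probeset each. PC-3 is an androgen-independent line from a human prostate carcinoma. The vehicle group (3 arrays) was given ethanol and the menthol group (3 arrays) menthol dissolved in ethanol. The labels put the ethanol vehicle at 0.1%, the serum in the DMEM medium at 10% and the RNA labelled per array at 300 ng. Neither the menthol dose nor the time of exposure is stated in the sources used here. All arrays came from this line. Nothing in the labels makes the replicates separate cultures, so each p-value speaks only of the spread among these 6 arrays, and that spread may be technical.

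Condensins are ring-shaped complexes that fold chromatin into loops and give mitotic chromosomes their rod shape. Condensin I and condensin II share the ATPase pair SMC2 and SMC4, and each adds its own kleisin (NCAPH or NCAPH2) and its own pair of HEAT-repeat subunits (NCAPD2 and NCAPG, or NCAPD3 and NCAPG2). Topoisomerase II alpha, the product of TOP2A, passes DNA strands through each other and works beside condensin on the chromosome axis. Ki-67, the product of MKI67, coats the chromosome surface, keeps mitotic chromosomes apart and is a common histological marker of cycling cells. Most of these genes are transcribed mainly before and during mitosis, when the repressor and activator complexes built on MuvB act through a promoter element named the cell cycle genes homology region (CHR), often together with CCAAT boxes.

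The promoter windows of the members were read for these elements. RefSeq windows from 250 bases before to 50 after the start (GRCh38.p14) were available for 9 members, all but NCAPH2. These members had 12 windows in all. The CHR was searched as TTTGAA and its reverse complement TTCAAA, and the CCAAT box as CCAAT and ATTGG. At least 1 CHR match lay in a window of 8 of the 9 members, against 15.7% of the 14230 genes on the arrays with a window. By window, 8 of 12 held it, against 12.3% of 20100 windows. NCAPH alone among the 9 had no CHR match. CCAAT boxes were in windows of 5 of the 9 (NCAPD2, NCAPD3, NCAPH, TOP2A and MKI67), against 42.2% of genes. A match is a description of letters, not a site. The members were listed as genes of mitotic chromosomes, so a high share with a CHR may follow from that choice. Whether matches go with the changes with menthol was not tested. The 250 bases before the start are shown for the members with the largest decreases of condensin I, for TOP2A, and for MKI67, with the searched letters in capitals. NCAPD2 lies at chr12:6493852-6494101 on the plus strand, TOP2A at chr17:40417897-40418146 on the minus strand, NCAPG at chr4:17810729-17810978 on the plus strand and MKI67 at chr10:128126424-128126673 on the minus strand.
NCAPD2: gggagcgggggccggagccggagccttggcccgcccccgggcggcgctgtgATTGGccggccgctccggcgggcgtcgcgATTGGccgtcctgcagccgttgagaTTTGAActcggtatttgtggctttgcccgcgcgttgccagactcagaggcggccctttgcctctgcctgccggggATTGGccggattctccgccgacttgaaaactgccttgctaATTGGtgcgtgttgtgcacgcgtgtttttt
TOP2A: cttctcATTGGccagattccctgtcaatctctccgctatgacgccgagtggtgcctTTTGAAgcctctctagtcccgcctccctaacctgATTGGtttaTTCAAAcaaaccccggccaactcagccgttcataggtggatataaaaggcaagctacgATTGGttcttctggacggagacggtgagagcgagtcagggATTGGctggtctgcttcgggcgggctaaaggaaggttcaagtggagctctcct
NCAPG: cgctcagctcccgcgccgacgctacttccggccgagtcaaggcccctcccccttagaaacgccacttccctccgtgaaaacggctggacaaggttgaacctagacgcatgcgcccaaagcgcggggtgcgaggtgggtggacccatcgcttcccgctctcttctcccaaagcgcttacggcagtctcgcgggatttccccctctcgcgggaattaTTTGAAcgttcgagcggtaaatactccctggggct
MKI67: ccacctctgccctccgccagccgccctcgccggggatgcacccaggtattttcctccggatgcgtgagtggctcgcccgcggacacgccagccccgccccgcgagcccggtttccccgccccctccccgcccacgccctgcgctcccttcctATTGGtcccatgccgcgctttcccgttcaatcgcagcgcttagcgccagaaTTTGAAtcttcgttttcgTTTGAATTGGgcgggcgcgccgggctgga
NCAPD2 and TOP2A carried 4 ATTGG boxes each. The CHR of NCAPG lay 35 bases before the start, and the CHRs of MKI67 47 and 29 bases before it. The nearer MKI67 match shares its last base with an ATTGG. The matches of NCAPD3 and SMC2 began 3 bases before the start and ran across it. In NCAPG2 the match lay 36 bases after the start, in transcribed sequence.

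The labelled cell type was checked against marker genes. The epithelial genes KRT8, KRT18, EPCAM and CDH1 lay between the 87.6th and 99.0th percentile of all genes by mean signal, and all 4 were higher with menthol. The androgen-responsive genes KLK2 and KLK3 lay between the 32.2nd and 33.6th percentile, and neither passed the test. Among markers of other cells, the leukocyte genes ran from PTPRC at the 2.96th percentile to CD68 at the 87.2nd, and the fibroblast genes from LUM at the 0.712th to COL1A1 at the 70.7th. The summed intensity of the 4 endothelial markers was 117 to 119 with vehicle and 201 to 219 with menthol, as KDR and PECAM1 rose. That of the 4 measured leukocyte markers was 523 to 558 and 621 to 673, with CD68 higher, and that of the 6 fibroblast markers 349 to 378 and 325 to 351. Of the fibroblast markers COL1A2 and DCN were higher (limma adjusted p = 0.0390 and 0.0245) and 0 lower. DCN was very dim, at the 1.94th percentile. COL1A1 had all menthol arrays below all vehicle arrays, but its change of -0.20 did not pass (limma adjusted p = 0.0763). The part of the markers of other cells in the results was not tested. Array medians lay between 47.4 and 49.1 intensity units, and the median SD between replicates was 0.08 (vehicle) and 0.10 (menthol) on the log2 scale.

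With menthol, 6 of the 10 members fell and 0 rose: the condensin subunits NCAPD2, NCAPD3, NCAPG and SMC4, and TOP2A and MKI67. The falls ran from 1.26-fold in MKI67 to 1.73-fold in NCAPD2. The other 4, NCAPG2, NCAPH, NCAPH2 and SMC2, did not pass (limma, Benjamini-Hochberg adjusted p under 0.05 over all genes). At an unadjusted p under 0.05 in limma, 0 members were higher as well, against 3957 of all 18404 genes and 1008 of the brightest 4601. Over all genes 14.5% were lower and 14.6% higher by this rule. Of the members, 9 were in the brightest 4601 genes, where 26.9% were lower and 17.2% higher. The median change of the members was -0.35 on the log2 scale, against 0.03 over all genes and -0.05 in the brightest 4601. A fall of at least 1.5-fold was reached by 2 members, NCAPD2 and TOP2A, against 2.62% of all genes and 179 of the brightest 4601. In bulk samples, fewer cells in mitosis and less RNA per cell cannot be told apart.

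**Figure D1:**
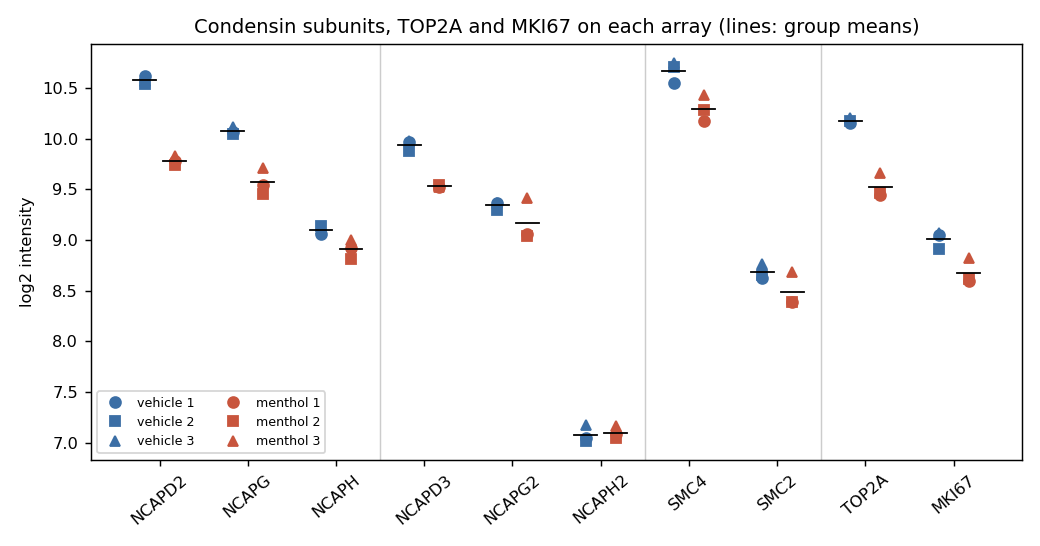
log2 intensity (y axis) of the 10 members on each of the 3 vehicle arrays (blue) and 3 menthol arrays (red), with lines at the group means; levels of different genes are not comparable. In 7 members the menthol arrays all lie below the vehicle arrays, and the triangle of menthol replicate 3 is the highest menthol array in 9 of the 10.

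Condensin I has a regulatory HEAT-repeat subunit, NCAPD2 (probeset 7953351), which had the largest fall of the members. Its log2 intensity was 10.62, 10.54 and 10.56 on the vehicle arrays and 9.78, 9.74 and 9.82 on the menthol arrays. The groups did not overlap and were separated by many times their spread. The change was -0.79 ± 0.06 (SE, n = 3 per group; limma adjusted p = 0.000143). NCAPG (probeset 8094278), the other HEAT-repeat subunit of condensin I, was at 10.06, 10.05 and 10.11 with vehicle and at 9.54, 9.46 and 9.71 with menthol. All menthol arrays were below all vehicle arrays, with menthol replicate 3 closest to them. NCAPG fell by 0.51 ± 0.08 (SE; limma adjusted p = 0.00273), or 1.42-fold. The kleisin NCAPH (probeset 8043602), which closes the condensin I ring, was at 9.05, 9.14 and 9.11 with vehicle and at 8.92, 8.81 and 9.003 with menthol. Its groups did not overlap either, but the change of -0.19 ± 0.07 did not pass (limma adjusted p = 0.0807; 95% confidence interval -0.35 to -0.03).

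Condensin II acts inside the nucleus from early prophase, before the nuclear envelope breaks down. Its HEAT-repeat subunit NCAPD3 (probeset 7952830) was at 9.96, 9.88 and 9.97 with vehicle and at 9.52, 9.54 and 9.52 with menthol. The menthol arrays lay close together below all vehicle arrays, and NCAPD3 fell by 0.41 ± 0.06 (SE, n = 3 per group; limma adjusted p = 0.00218). NCAPG2 (probeset 8144153) was at 9.36, 9.30 and 9.37 with vehicle and at 9.05, 9.04 and 9.41 with menthol. Menthol replicates 1 and 2 were below all vehicle arrays and menthol replicate 3 above all of them. Its change of -0.17 ± 0.10 did not pass (limma adjusted p = 0.251; 95% confidence interval -0.41 to 0.07). Without menthol replicate 3 it was -0.29 and passed (limma adjusted p = 0.0194). The condensin II kleisin NCAPH2 (probeset 8074082) was at 7.04, 7.02 and 7.17 with vehicle and at 7.09, 7.04 and 7.17 with menthol. These groups overlapped throughout, with a change of 0.02 ± 0.07 (limma adjusted p = 0.859; 95% confidence interval -0.14 to 0.18). NCAPH2 was also the dimmest member, at the 59.4th percentile, where the other 9 lay between the 81.7th and the 96.7th.

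The ATPase pair is shared by both complexes, and its partners differed in whether they passed. SMC4 (probeset 8083709) was at 10.55, 10.70 and 10.75 with vehicle and at 10.17, 10.28 and 10.43 with menthol. The groups did not overlap, and SMC4 fell by 0.37 ± 0.09 (SE, n = 3 per group; limma adjusted p = 0.0158). The SMC4 call ended without vehicle replicate 2 (adjusted p = 0.0537 in limma) or vehicle replicate 3 (adjusted p = 0.0565). SMC2 (probeset 8156982), which pairs with SMC4 at the hinge, was at 8.63, 8.66 and 8.76 with vehicle and at 8.39, 8.39 and 8.68 with menthol. Menthol replicate 3 lay within the range of the vehicle arrays and the others below it. The change in SMC2 was -0.20 ± 0.09 (limma adjusted p = 0.157; 95% confidence interval -0.41 to 0.02), and without menthol replicate 3 it was -0.29 and passed (limma adjusted p = 0.0264).

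TOP2A (probeset 8014974) had the next largest fall after NCAPD2. It was at 10.15, 10.18 and 10.20 with vehicle and at 9.44, 9.46 and 9.66 with menthol. The vehicle arrays lay close together (SD 0.03), and all menthol arrays were below them. TOP2A fell by 0.66 ± 0.08 (SE, n = 3 per group; limma adjusted p = 0.000773), or 1.58-fold. MKI67 (probeset 7937020) was at 9.05, 8.92 and 9.07 with vehicle and at 8.59, 8.62 and 8.82 with menthol. The groups did not overlap, but menthol replicate 3 came close to vehicle replicate 2. MKI67 fell by 0.33 ± 0.08 (SE; limma adjusted p = 0.0205), and it passed in 2 of the 6 fits that left out an array, against 4 for SMC4 and 6 for the other members that passed. Its call ended without vehicle replicate 1 (adjusted p = 0.0693 in limma), vehicle replicate 3 (0.0684), menthol replicate 1 (0.0580) or menthol replicate 2 (0.0674).

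**Figure D2:**
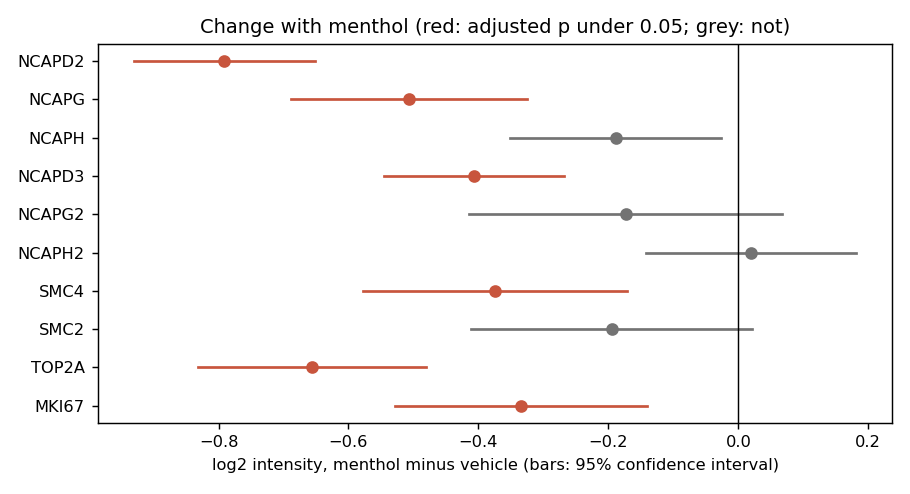
Change of each member with menthol (x axis, log2 intensity, menthol minus vehicle) with its 95% confidence interval from limma; red points passed an adjusted p of 0.05 and grey points did not. The intervals of NCAPD2 (-0.93 to -0.65) and NCAPH2 (-0.14 to 0.18) do not meet.

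In all, the groups did not overlap in 7 members, each time with menthol lower, against 21.7% of all genes and 39.8% of the brightest 4601. Menthol replicate 3 was the highest menthol array in 9 of the 10 members, NCAPD3 being the exception, against 37.6% of all genes and 52.3% of the brightest 4601. Across the members its log2 value exceeded the mean of menthol replicates 1 and 2 by a median of 0.21, against 0.01 over all genes and 0.04 in the brightest 4601. Vehicle replicate 3 was likewise the highest vehicle array in 8 of the 10 members, against 36.3% of all genes and 52.3% of the brightest 4601. Its median excess over the mean of vehicle replicates 1 and 2 was 0.06, against 0.004 over all genes and 0.03 in the brightest 4601. The part of menthol replicate 3 in the results was not tested beyond leaving it out, which gave 8 members lower in place of 6. Leaving out vehicle replicate 3 gave 4, and leaving out any of the other 4 arrays gave 5.

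**Figure D3:**
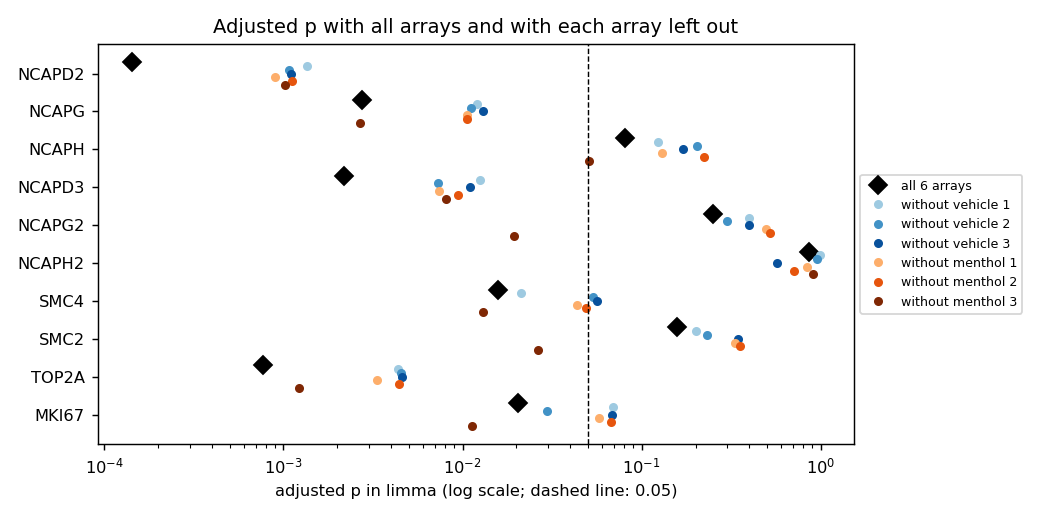
Adjusted p of each member in limma (x axis, log scale, dashed line at 0.05) with all 6 arrays (diamonds) and with each array left out (circles). NCAPD2, NCAPG, NCAPD3 and TOP2A stay left of the line throughout, and without menthol replicate 3 NCAPG2 and SMC2 cross to its left.

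Genes of condensin I were compared with their condensin II counterparts within each array. SMC4 was likewise set against SMC2, its partner in both complexes, and TOP2A against TOP2B. Each value is the difference of the log2 values of a pair relative to the mean of the vehicle arrays. For NCAPD2 and its condensin II counterpart NCAPD3 the difference lay between -0.44 and -0.34 on the menthol arrays and between -0.04 and 0.03 on the vehicle arrays. The change of NCAPD2 minus that of NCAPD3 was -0.38 ± 0.04 (SE, n = 3 per group). For NCAPG and NCAPG2 the same difference was -0.33 ± 0.06, and menthol replicate 3, at -0.43, was the farthest from vehicle. For the kleisins NCAPH and NCAPH2 it was -0.21 ± 0.06, and for SMC4 and SMC2 -0.18 ± 0.06. In these 4 pairs all menthol arrays lay below all vehicle arrays, with an exact permutation p of 0.10 (two-sided), the smallest that 3 against 3 arrays can give, and 0.125 after adjustment over 5 pairs. The topoisomerase pair TOP2A and TOP2B did not separate: the difference was -0.05 ± 0.05 with overlapping groups (exact permutation p = 0.20, adjusted p = 0.20). TOP2B, which serves non-dividing as well as dividing cells, itself fell by 0.61 ± 0.09 (limma adjusted p = 0.00273). In each of the 4 pairs that separated, the first gene was also the brighter by percentile of mean signal. NCAPD2 was at 95.4 and NCAPD3 at 92.8, NCAPG at 93.3 and NCAPG2 at 89.0. NCAPH was at 86.6 and NCAPH2 at 59.4, SMC4 at 96.7 and SMC2 at 81.7. TOP2A (93.5) and TOP2B (92.9) were closer. The part of brightness in these differences was not tested, and other gene pairs were not compared.

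**Figure D4:**
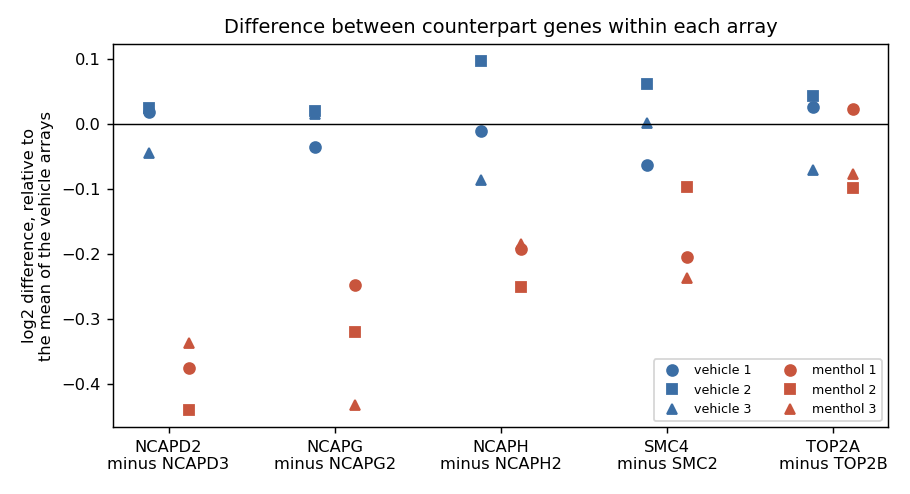
Difference between counterpart genes on each array (y axis, log2, relative to the mean of the vehicle arrays), with vehicle in blue and menthol in red. All menthol arrays are below all vehicle arrays in the pairs of condensin I and II counterparts and for the partners SMC4 and SMC2. The groups overlap for TOP2A and TOP2B.

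Of the genes for proteins that load or switch condensin, 11 of 12 measured (91.7%) fell and 0 rose. Their median was -0.46 on the log2 scale. Over all genes 14.5% were lower, and 26.9% of the brightest 4601, which held 11 of the 12. PLK1, a kinase that phosphorylates condensin II subunits, fell by 1.01 ± 0.06 (limma adjusted p = 5.28e-05). CCNB1, the cyclin of the kinase CDK1, fell by 0.54 ± 0.07 and INCENP, the scaffold of the chromosomal passenger complex, by 0.57 ± 0.08. NUSAP1, a microtubule- and chromatin-binding protein, fell by 0.59 ± 0.08. RIF1 was the gene of this list that did not pass, at -0.06 ± 0.08. Whether this list and the condensins differ was not tested. At an unadjusted p under 0.05 in limma, 0 genes of this list were higher, against 3957 of all 18404 genes and 1008 of the brightest 4601.

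Among cohesin subunits and regulators, the related ring complex that holds sister chromatids together, 8 of 18 (44.4%) fell and 2 rose. The median was -0.19. The share lower was 14.5% over all genes and 26.9% in the brightest 4601, which held 12 of the 18. PTTG1, which encodes securin, fell by 0.69 ± 0.06, although near-identical copies make its own signal uncertain. ESPL1, the separase that cuts cohesin at anaphase, fell by 0.56 ± 0.07 and the cohesin loader NIPBL by 0.41 ± 0.08. WAPL, which releases cohesin from chromatin, rose by 0.41 ± 0.07 (limma adjusted p = 0.00377). STAG1, a cohesin subunit named here because it was the other gene that rose, was chosen after its values were seen and rose by 0.36 ± 0.09. In place of 2, 1 cohesin gene rose without vehicle replicate 1, vehicle replicate 2 or menthol replicate 3.

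In the SMC5/6 complex, a ring complex of DNA repair, 3 of 9 genes (33.3%) fell and 0 rose, with a median of -0.21. Lower genes made up 14.5% of all genes and 26.9% of the brightest 4601. SLF2, which recruits SMC5/6 to DNA lesions, fell by 0.84 ± 0.07 (limma adjusted p = 0.000174). EID3 fell by 0.35 ± 0.08 and the ubiquitin ligase NSMCE1 by 0.23 ± 0.07. The NSMCE1 call ended with any array but menthol replicate 3 left out (adjusted p between 0.0563 and 0.112 in limma), under cyclic loess normalization (0.0623) and with every probeset tested (0.0740). Without menthol replicate 3, 5 genes of this list fell. Of the other topoisomerases and their repair enzymes, 1 of 7 (14.3%) fell, TOP2B, and 0 rose, with a median of -0.12. That share was near the one over all genes and below that of the brightest 4601, which held 6 of the 7. At an unadjusted p under 0.05 in limma, 0 genes of either list were higher, against 3957 of all 18404 genes and 1008 of the brightest 4601.

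Ki-67 gathers nucleolar proteins on the chromosome surface. Of 9 measured genes of this layer and of Ki-67 partners 6 (66.7%) fell and 0 rose, with a median of -0.29. The share lower was 14.5% over all genes and 26.9% in the brightest 4601, which held 8 of these 9. The kinesin KIF15, which binds Ki-67, fell by 0.63 ± 0.10. RRP1B fell by 0.46 ± 0.06 and the ribosome biogenesis factor BOP1 by 0.44 ± 0.08. NPM1 fell by 0.31 ± 0.06 on its brightest probeset, but the mean of its 3 probesets gave -0.25 (limma adjusted p = 0.114). Of 10 measured other chromatin, centromere and spindle-linked proteins 7 (70.0%) fell and 0 rose, with a median of -0.36. The same background shares apply, and the brightest 4601 held 8 of these 10. The spindle-linked protein HMMR fell by 1.02 ± 0.09. The kinetochore motor CENPE fell by 0.83 ± 0.11 and the kinetochore protein CENPF fell by 0.80 ± 0.09. The DNA-bending protein HMGB2 fell by 0.58 ± 0.08. At an unadjusted p under 0.05 in limma, 1 gene of each of these lists was higher: RRS1 and BANF1, both named after their values were seen. By that rule 3957 of all 18404 genes and 1008 of the brightest 4601 were higher.

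Of the regulators of mitotic transcription 4 of 21 (19.0%) fell and 1 rose, with a median of -0.07. The share that fell was near the 14.5% of all genes and below the 26.9% of the brightest 4601, and the median was near the -0.05 of the latter. MYBL2, which binds the MuvB core, was at 9.51, 9.53 and 9.54 with vehicle and at 9.02, 8.997 and 8.98 with menthol. The arrays within each group lay within a few hundredths of each other, and MYBL2 fell by 0.52 ± 0.06 (SE, n = 3 per group; limma adjusted p = 0.000561). FOXM1, an activator of genes of mitosis, fell by 0.38 ± 0.06, the repressor E2F4 by 0.37 ± 0.06 and the CCAAT-binding subunit NFYB by 0.48 ± 0.09. The MuvB core genes LIN9, LIN37, LIN52, LIN54 and RBBP4 were between -0.10 and 0.11, and none of these 5 passed. RBL1, which encodes the pocket protein p107 and was chosen after its values were seen, rose by 0.33 ± 0.08 (limma adjusted p = 0.0177), but did not pass without vehicle replicate 2.

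**Figure D5:**
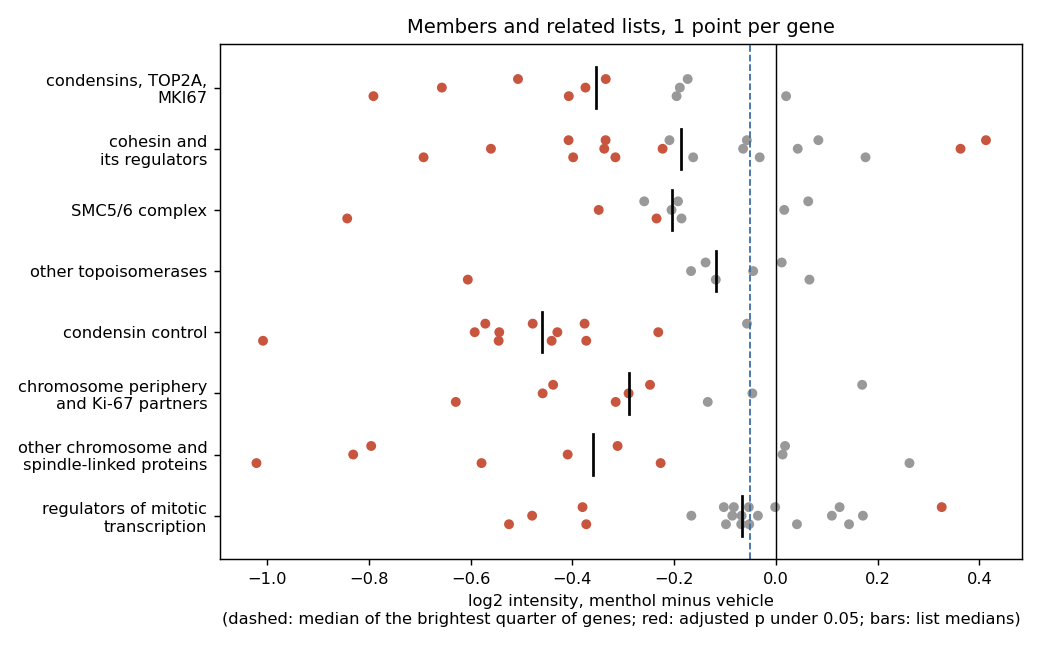
Change with menthol (x axis, log2 intensity, menthol minus vehicle) of each gene of the members and of the 7 related lists; red points passed an adjusted p of 0.05, bars are list medians and the dashed line is the median of the brightest 4601 genes (-0.05). The medians run from -0.46 in condensin control to -0.07 in the regulators of mitotic transcription.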

How the data were processed

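Expression was measured in PC-3 cells on 6 Affymetrix whole-transcript arrays. The authors deposited 1 table of intensity values, made with RMA per the submitters' processing notes, for 32321 probesets. They ran from 1.57 to 14835 and were thus linear, so log2 was taken. Probesets with 1 gene symbol in the platform annotation (19158) were used, and for each gene the one with the highest mean was kept. A linear model with group as its single term was fitted on all 18404 genes in limma 3.58.1 (R 4.3.3), two-sided, with Benjamini-Hochberg adjustment over them. Lists are described by counts and medians, without a set test. The members and lists were chosen with earlier results of these data known. The text names all members, and of each list up to 4 genes with the largest change past the threshold. It also names the 5 genes whose values correlate best with the members. In data simulated for menthol against vehicle, 94.0% of the 200 genes given a 1.5-fold change were called. There were 7 false calls among the unchanged remainder of the 18404 genes. The simulated noise was normal and independent between genes, without patterns that genes share on an array. Only 200 genes changed in it, where 5353 were called in the data. Changes under 1.5-fold were not simulated, so the share called does not cover the smaller falls. The number of arrays limits the precision. The labels do not say whether equal replicate numbers pair the arrays, and the main fit left them unpaired. Alternatives were other normalizations, filters on dim genes, probeset rules, priors, array weights, a block and the omission of each array. Genes without a probeset of their own were not analysed here. Python 3.11.15 made the figures.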

Additional observations from a re-analysis of the deposited data

How the results depend on the processing

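The count of members lower with menthol was 4 to 8 over the 18 alternatives and that of members higher was 0 in each. The lower count was 7 with array weights, either filter on dim genes and the trended robust prior (statmod 1.5.0), where NCAPH passed as well. NCAPD2, NCAPD3, NCAPG and TOP2A passed in all 18. SMC4 passed in 15 and MKI67 in 13. NCAPH2 turned to -0.00894 without vehicle replicate 2 and to -0.0138 without menthol replicate 3. With each array left out it lay between -0.0138 and 0.0665, and it passed in 0 alternatives. The related genes that rose numbered 3, and 7 with only genes above the median signal, 5 with the trended robust prior and 1 at a threshold of 0.01. With each array left out they numbered 1 to 3. The replicate block, used in case equal numbers pair the arrays, gave 6 members lower and 0 higher, as without it. Over all genes, deviations from group means correlated between -0.01 and 0.09 for same-numbered arrays. For the other combinations they lay between -0.07 and 0.07. Such correlations cannot settle whether the arrays were paired. Quantile normalization moved the median of all genes by -0.03. Arrays near background limit dim genes; the members other than NCAPH2 were bright.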

Other observations

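The genes whose values over the 6 arrays were most like the mean of the members, each gene centred, were NIPBL (Pearson r = 0.9995), PPARG (0.999), TPR (0.9985), NUF2 (0.9984) and PARGP1 (0.9983). All 5 fell with menthol and had menthol replicate 3 as the highest menthol array, as the mean of the members does. Direction and pattern follow from the way these genes were picked and are not separate results. The points share 2 groups of 3 arrays, so such values are a description. TPR, a nuclear pore basket protein, was at 8.05, 8.01 and 8.16 with vehicle and at 7.38, 7.37 and 7.63 with menthol. The kinetochore gene NUF2 was at 9.23, 9.18 and 9.27 with vehicle and at 8.58, 8.53 and 8.84 with menthol. The nuclear receptor gene PPARG fell by 0.31 ± 0.07, and its call ended without menthol replicate 2 (limma adjusted p = 0.0506). PARGP1 is a pseudogene of PARG, so its signal may not be its own. Of the members, NCAPG followed the mean of the other members most closely (r = 0.994) and NCAPH2 least (r = 0.08), a description over the same 6 arrays.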
